A study of Homo sapiens with 6 samples.

Results

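Human endogenous retroviruses (ERVs) left sequences in the genome, many with open reading frames, that are annotated today as host genes. Here 8 such genes are described in T24 cells after knockdown of TRIM28. The 8 genes were taken by symbol from the 78932 genes of the deposited count table, whatever their values: ERV3-1, ERVK3-1, ERVK13-1, ERVMER34-1, ERVW-1, ERVFRD-1, ERVV-1 and ERVV-2. T24 is an established line of human urothelial carcinoma, and each group has 3 cultures that the labels call biological replicates. The control group is transfected with a control siRNA (siNC) and the other group with siRNA against TRIM28 (siTRIM28). The labels name no other alteration, give all 6 cultures 1 batch, and cover a single cell line. Which TRIM28 siRNA was used and how long the cells were exposed to it are not stated, so an effect of 1 siRNA sequence and an effect of losing TRIM28 cannot be told apart.

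TRIM28 is a corepressor that KRAB zinc finger proteins carry to retroviral sequence, where it brings in the methyltransferase SETDB1 and methylation of histone H3 at lysine 9. An intact provirus has gag, pol and env genes between long terminal repeats that act as promoters, and most host genes of this kind are what remains of an env gene. Several envelope genes are known from the placenta, where the syncytins fuse trophoblast cells.

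Poly(A) RNA was sequenced, and the total of counted reads lies between 11712623 and 14018052 per library. Within a group the libraries are not equally close. The chi-square per degree of freedom between the counts of 2 replicates, which is 1 for pure sampling noise, is 1.08 for siNC replicates 1 and 2 and 1.24 for siTRIM28 replicates 2 and 3, against 4.59 to 6.99 for the other pairs. In each group 1 pair thus differs by little more than sampling noise, and siNC replicate 3 and siTRIM28 replicate 1 stand apart from it. Whether the close libraries come from independent cultures cannot be told from the counts. If they do not, n = 3 overstates the replication and the p-values are too small. Results are also given without the libraries that stand apart, which leaves a close pair in that group, and with the close pairs summed. TRIM28 has 1382 to 1419 counts in siNC and 96 to 130 in siTRIM28. Of 16 urothelial and epithelial markers, 5 have enough counts to test and KRT20 and UPK1B have no count in any library. KRT8 lies at 104 ± 0.619 and 114 ± 5.39 CPM and KRT18 at 86.1 ± 3.91 and 91.2 ± 1.83 CPM in siNC and siTRIM28 (CPM, TMM-scaled counts relative to library size, mean ± SD, n = 3 each). KRT19, another simple keratin, has 0 to 7 counts per library, and UPK1A, a uroplakin, has 4 to 17 counts in siNC and 34 to 58 in siTRIM28. KRT18, KRT19, KRT20 and UPK1B were named after their values were seen.

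The starts of the genes differ in sequence, and those of the 3 genes with enough counts to test are shown because the values below are those of transcripts from these loci. Each sequence is the RefSeq promoter window of GRCh38.p14, from 250 bases before to 50 bases after a start, and 6 of the 8 genes have one. Capitals mark matches on either strand to the TATA box TATAAA, to the CCAAT box, to the ETS-type motif CCGGAAG and to the GC box GGGCGG, which were chosen after the sequences were seen. ERV3-1 has 2 annotated starts, and both are printed.
ERVK3-1 (chr19:58305127-58305426, plus strand): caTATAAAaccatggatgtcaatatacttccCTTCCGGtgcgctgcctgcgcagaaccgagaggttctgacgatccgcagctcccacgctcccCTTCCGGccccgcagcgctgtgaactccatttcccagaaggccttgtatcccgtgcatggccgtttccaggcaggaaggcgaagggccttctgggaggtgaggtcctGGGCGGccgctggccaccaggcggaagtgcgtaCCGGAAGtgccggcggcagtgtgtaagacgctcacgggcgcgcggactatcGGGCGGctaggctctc
ERV3-1 upper start (chr7:65006638-65006937, minus strand): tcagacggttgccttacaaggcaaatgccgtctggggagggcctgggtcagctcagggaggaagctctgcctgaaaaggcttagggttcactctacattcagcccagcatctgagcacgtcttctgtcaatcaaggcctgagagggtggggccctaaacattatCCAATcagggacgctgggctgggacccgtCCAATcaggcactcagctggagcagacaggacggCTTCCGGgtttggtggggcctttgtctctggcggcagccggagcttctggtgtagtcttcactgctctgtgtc
ERV3-1 inner start (chr7:64999393-64999692, minus strand): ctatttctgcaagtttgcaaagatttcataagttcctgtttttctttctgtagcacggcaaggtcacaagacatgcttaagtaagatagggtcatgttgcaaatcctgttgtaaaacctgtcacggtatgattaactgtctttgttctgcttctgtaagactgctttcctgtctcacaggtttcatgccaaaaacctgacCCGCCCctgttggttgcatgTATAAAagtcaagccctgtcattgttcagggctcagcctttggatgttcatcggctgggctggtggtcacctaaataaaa
ERVK13-1 (chr16:2673390-2673689, minus strand): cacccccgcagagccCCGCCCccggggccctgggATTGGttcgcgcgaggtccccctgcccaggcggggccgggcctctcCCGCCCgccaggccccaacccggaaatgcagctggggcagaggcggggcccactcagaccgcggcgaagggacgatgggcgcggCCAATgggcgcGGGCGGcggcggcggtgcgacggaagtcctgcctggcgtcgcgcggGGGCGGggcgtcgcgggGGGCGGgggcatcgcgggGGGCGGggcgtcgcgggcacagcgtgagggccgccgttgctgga
Of all 300-base promoter windows in the same table, 11.5% hold TATAAA, 34.6% CCAAT, 10.3% CCGGAAG and 45.0% GGGCGG. The inner start of ERV3-1 has a TATAAA that begins 30 bases before the start and a GC content of 43.3%, where the median of all windows is 58.7%. Its upper start holds 2 CCAAT and 1 CCGGAAG and has a GC content of 58.3%. ERVK3-1 starts in sequence with 27 CpG dinucleotides, 3 CCGGAAG and 2 GGGCGG, and its TATAAA lies at base 3 of the window. ERVK13-1 has the highest GC content of the 4 windows, 80.7%, with 44 CpG and 6 GGGCGG, where the median window holds 14 CpG. This RefSeq start lies inside the counted ERVK13-1 row, whose upper end is at 2682379. It is therefore not the start of the whole row. Such matches describe the letters of a window and show no binding.

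Of the 8 genes, 3 have enough counts to test, and 2 of these are higher in siTRIM28. ERV3-1 rises 1.62-fold and ERVK3-1 1.18-fold, while ERVK13-1 does not pass the test and the other 5 genes have at most 2 counts in any library. A gene is tested where 10 or more counts are present in 3 or more libraries, and is called at an adjusted p under 0.05 (edgeR's quasi-likelihood test, Benjamini-Hochberg adjustment over the 18474 genes tested). The background is high, since 41.8% of all genes tested are called, 21.3% higher and 20.5% lower, so 2 of 3 is not a result about ERV genes as a group. The 3 tested genes had to reach the count minimum and do not stand for the 8. In bulk RNA, fewer cells with a transcript and less of it per cell cannot be told apart.

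**Figure D1:**
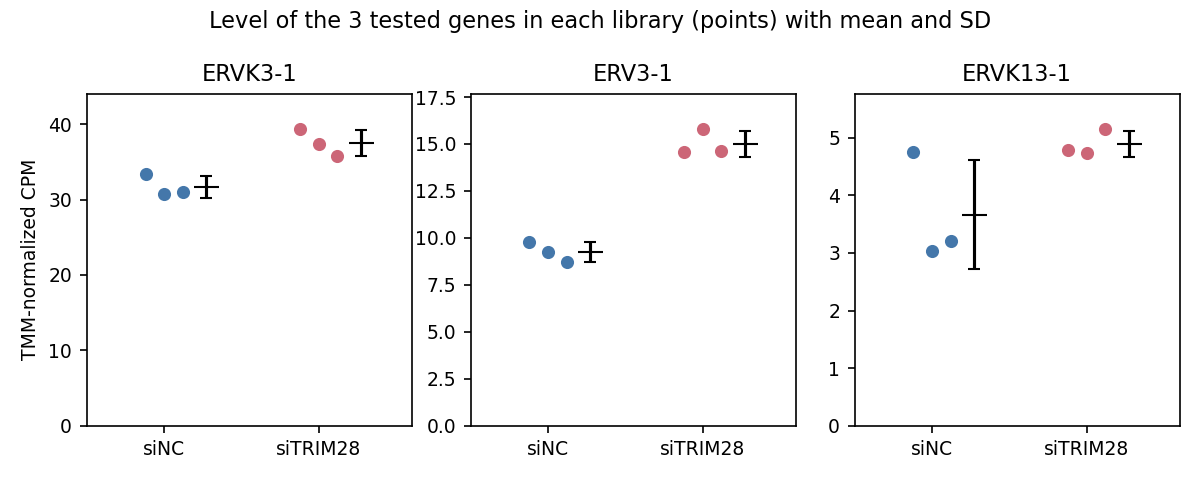
TMM-normalized CPM (y axis, from 0) of ERVK3-1, ERV3-1 and ERVK13-1 in each siNC and siTRIM28 library (points, replicates 1 to 3 from left to right), with the mean and SD of each group beside them (n = 3). The siTRIM28 points lie above all siNC points for ERVK3-1 and ERV3-1, and for ERVK13-1 siNC replicate 1 lies within the siTRIM28 range.

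ERV3-1 (ENSG00000213462, chromosome 7, 64990356 to 65006687, minus strand, GRCh38) encodes the envelope of a provirus of the ERV3 group, a protein cut short by a stop codon that removes its membrane anchor. It has 136, 128 and 111 counts in siNC replicates 1 to 3 and 204, 187 and 173 in siTRIM28 replicates 1 to 3. In CPM these are 9.79, 9.25 and 8.70 against 14.6, 15.8 and 14.6. Each siTRIM28 library lies above each siNC library, as for 26.3% of all genes tested, and groups are apart in either direction for 52.0%. The means are 9.25 ± 0.544 and 15.0 ± 0.695 CPM (SD, n = 3 each), and the log2 fold change is 0.69 (SE, the standard error, 0.0857; adjusted p = 5.56e-05, edgeR). A two-sided exact permutation test on log2 CPM yields p = 0.1, and 3 libraries against 3 cannot give less. The log2 fold change is 0.65 without siNC replicate 3 and 0.71 without siTRIM28 replicate 1, and the gene is called in both. With the close pairs summed it is 0.70 (adjusted p = 0.00229, edgeR).

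The ERV3-1 row shares its locus with ZNF117, a zinc finger gene on the same strand that ends at the same upper coordinate, 65006687, and transcripts from the provirus are known to run into ZNF117. ZNF117 has 113, 139 and 109 counts in siNC and 203, 161 and 172 in siTRIM28, close to those of ERV3-1. Its log2 fold change equals 0.67 (SE 0.0973, adjusted p = 1.86e-04, edgeR). The difference between both genes in log2 CPM, ERV3-1 minus ZNF117, is 0.06 ± 0.192 in siNC and 0.08 ± 0.119 in siTRIM28 (SD, n = 3 each). It moves by 0.02 (exact two-sided permutation test, p = 1), and with 1 library left out by −0.07 to 0.12, so these data do not separate the rise of one row from that of the other. In the GENCODE v29 annotation, which is older than the deposited one, 372 of the 4574 exon bases of ERV3-1 (8.13%) are shared with ZNF117.

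Reads on shared exons appear to be given to more than 1 row, although the counting rule is not stated. In GENCODE v29, 37 read-through genes whose length is the same in the deposited table have no exon base outside their 2 parent genes, and 32 of them still reach the count minimum. Reads of ERV3-1 and ZNF117 are therefore not treated as fully independent, and the part of shared reads in the rise was not tested. The deposited length of ERV3-1 is 9318 bases against 4574 in GENCODE v29, so the overlap in the annotation behind the counts may be another.

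The genes further out at this locus include 2 zinc finger genes that are also higher. ZNF273, the nearest tested gene on the lower side at 59375 bases, has 87, 106 and 87 counts in siNC and 181, 156 and 160 in siTRIM28 (log2 fold change 0.93, SE 0.101, adjusted p = 2.04e-05). ZNF138, named after its values were seen, has 136 to 151 counts in siNC and 191 to 203 in siTRIM28 (log2 fold change 0.57, adjusted p = 2.34e-04). Neither overlaps ERV3-1, although zinc finger genes are a multigene family whose reads the counting may have split between similar copies. On the upper side the nearest tested gene is CCT6P3 at 31576 bases, a pseudogene that does not pass the test (log2 fold change 0.12, SE 0.218, adjusted p = 0.696). Within 250 kb of ERV3-1 all 3 genes named ZNF with a number are called higher, ZNF117, ZNF138 and ZNF273. Of all such genes 400 are tested, and 57 of them are called higher and 84 lower.

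**Figure D2:**
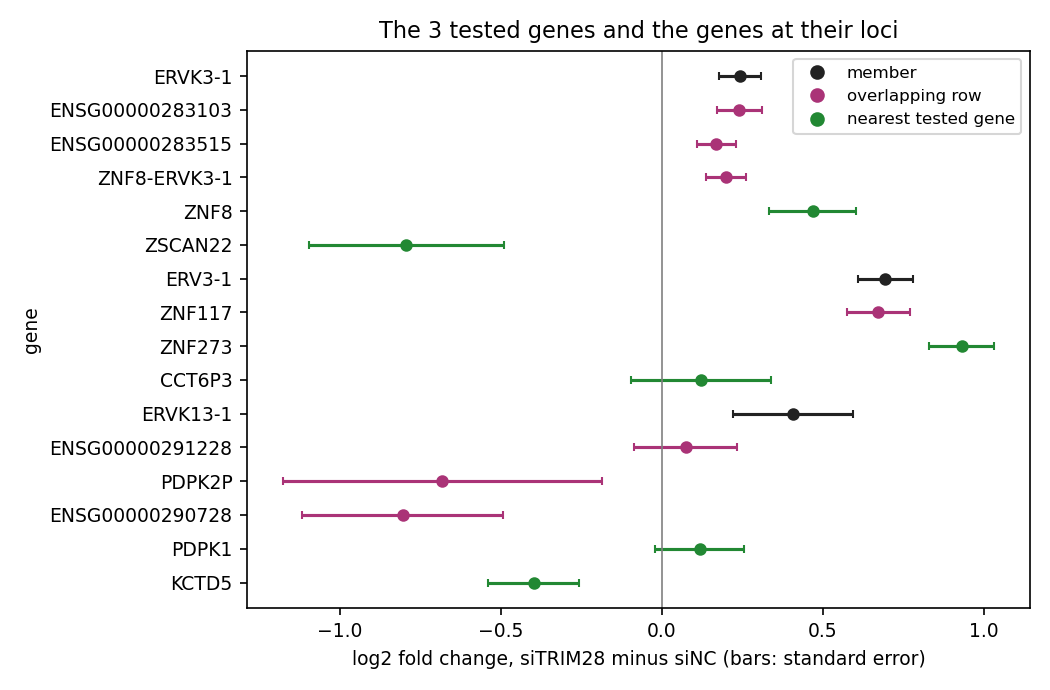
Log2 fold change (x axis, siTRIM28 minus siNC, bars show the SE) of the 3 tested ERV genes (black), of the tested rows whose span overlaps them (purple) and of the nearest tested gene on each side (green). ERV3-1, ZNF117 and ZNF273 lie between 0.67 and 0.93, the 4 rows that overlap at ERVK3-1 between 0.17 and 0.24, and the rows around ERVK13-1 on both sides of 0.

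ERVK3-1 (ENSG00000142396, chromosome 19, 58305374 to 58314781, plus strand) is a protein-coding gene of the ERV group K3 and the most abundant of the 8. It has 463, 426 and 395 counts in siNC and 551, 442 and 424 in siTRIM28. In CPM these are 33.3, 30.8 and 31.0 CPM against 39.3, 37.3 and 35.8 CPM. The siTRIM28 libraries are all higher than the siNC libraries, by a margin of a few CPM. The means are 31.7 ± 1.43 and 37.5 ± 1.78 CPM (SD, n = 3 each), and the log2 fold change is 0.24 (SE 0.0652, adjusted p = 0.0104, edgeR). By exact two-sided permutation p is again 0.1. Without siNC replicate 2 the log2 fold change is 0.21 and the adjusted p 0.0534, just over the threshold. The estimate moves little with 1 library left out, from 0.21 to 0.27. DESeq2 on all 6 libraries gives an adjusted p of 0.0498, so the call of ERVK3-1 lies near the threshold. Without siNC replicate 3 the log2 fold change is 0.23 (adjusted p = 0.0363) and without siTRIM28 replicate 1 it is 0.21 (adjusted p = 0.0128). With the close pairs summed it is 0.26 (adjusted p = 0.0332, edgeR).

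The rows that overlap ERVK3-1 move by similar amounts. ZNF8-ERVK3-1 (ENSG00000267216), a read-through of ZNF8 into ERVK3-1, has 466, 442 and 389 counts in siNC and 530, 432 and 425 in siTRIM28 (log2 fold change 0.20, SE 0.0628, adjusted p = 0.0235). ENSG00000283515, a row on the same strand with a longer genomic span, has 532 to 639 counts in siNC and 572 to 693 in siTRIM28 (log2 fold change 0.17, SE 0.0604, adjusted p = 0.0416). ENSG00000283103, on the opposite strand, has 265 to 285 and 279 to 344 counts (log2 fold change 0.24, SE 0.0691, adjusted p = 0.0150). The counts of ERVK3-1 are 0.964 to 1.04 times those of ZNF8-ERVK3-1 in the 6 libraries, and the log2 difference of both moves by 0.04 between the groups (exact two-sided permutation test, p = 0.2).

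These 4 rows may hold reads in common, to an extent that cannot be read from the counts. In GENCODE v29, 876 of the 5023 exon bases of ERVK3-1 (17.4%) are shared with ZNF8-ERVK3-1, 862 (17.2%) with ENSG00000283515 and 2071 (41.2%) with the opposite-strand ENSG00000283103. The deposited length of ERVK3-1 is 6117 bases, so here too the overlap behind the counts may be another. The kit keeps strand, but whether the counting used it is not stated. Of the rows of GENCODE v29 genes that lie wholly inside the exons of a single gene on the opposite strand, 117 could be compared with that gene, and their median count per kb is 38.8% of it. Reads of ERVK3-1 and ENSG00000283103 are therefore reported as uncertain, and the part of such reads in the rise was not tested.

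Beyond the overlap, ZNF8, a KRAB zinc finger gene that ends 2583 bases below ERVK3-1, has 68 to 86 counts in siNC and 98 to 106 in siTRIM28 and is called higher (log2 fold change 0.47, SE 0.135, adjusted p = 0.0155). ZSCAN22, 12213 bases above, has 39, 34 and 24 counts in siNC and 25, 8 and 19 in siTRIM28, and its log2 fold change of −0.79 does not pass the test (SE 0.304, adjusted p = 0.0548). Of 11 genes named ZNF within 250 kb of ERVK3-1, 9 are tested, 4 are called higher (ZNF8 and, named after their values were seen, ZNF274, ZNF544 and ZNF584), none is called lower and 5 do not pass, with a median log2 fold change of −0.14. Of all 400 such genes tested, 57 are called higher and 84 lower. TRIM28 lies on the same chromosome arm, and its start is 229283 bases above the end of ERVK3-1. Within 250 kb of ERVV-1, 9 of 11 genes named ZNF are tested, with 1 called higher, 1 lower and 7 not passed. For ERVV-2, 8 of 10 are tested, with 1 called higher, 1 lower and 6 not passed.

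ERVK13-1 (ENSG00000260565, chromosome 16, 2608379 to 2682379, minus strand) is annotated as a processed transcript without a coding frame, from the ERV group K13. It has 66, 42 and 41 counts in siNC and 67, 56 and 61 in siTRIM28, which are 4.75, 3.03 and 3.21 CPM against 4.78, 4.73 and 5.15 CPM. siNC replicate 1 is as high as the siTRIM28 libraries, and the groups overlap. The means are 3.67 ± 0.944 and 4.89 ± 0.23 CPM (SD, n = 3 each), with a log2 fold change of 0.41 (SE 0.186) that does not pass the test (unadjusted p = 0.0496, adjusted p = 0.09999, edgeR, and p = 0.2 in the exact two-sided permutation test). Without siNC replicate 1 the log2 fold change is 0.64 and the adjusted p 0.0168, so this library decides whether ERVK13-1 is called. Without siNC replicate 3 it is 0.33 (adjusted p = 0.245), and without siTRIM28 replicate 1 it is 0.42 (adjusted p = 0.103). With the close pairs summed it is 0.42 (adjusted p = 0.101, edgeR).

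None of the 5 tested genes at the ERVK13-1 locus is called higher. Its span overlaps 9 other rows, of which 3 are tested and none is called. ENSG00000291228 has a log2 fold change of 0.07 (adjusted p = 0.744), the pseudogene PDPK2P one of −0.68 (adjusted p = 0.301) and ENSG00000290728 one of −0.80 (adjusted p = 0.0575). The other 6 rows, ENSG00000295643, ENSG00000295697, ENSG00000260176, ENSG00000215154, ENSG00000295667 and ENSG00000279057, have 0 to 33 counts over all 6 libraries. On the lower side PDPK1, a kinase that activates AKT, has a log2 fold change of 0.12 (adjusted p = 0.533). KCTD5, an adaptor of a ubiquitin ligase whose span begins 144 bases above ERVK13-1 on the opposite strand, falls by 0.40 on the log2 scale (SE 0.141, adjusted p = 0.0408). No exon base of ERVK13-1 is shared with another gene in GENCODE v29. Its exons hold 8966 bases there against a deposited length of 16040, so the overlap in the annotation behind the counts may be another. The part of reads shared with the overlapping rows was not tested.

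Per kb of the deposited gene length, ERVK3-1 lies at 5.18 ± 0.233 CPM per kb in siNC and 6.13 ± 0.290 in siTRIM28. ERV3-1 follows at 0.992 ± 0.0584 and 1.61 ± 0.0746 CPM per kb, and ERVK13-1 at 0.229 ± 0.0589 and 0.305 ± 0.0143 (SD, n = 3 each). Each step in this order is larger than the spread between replicates in both groups. The log2 difference between ERVK3-1 and ERV3-1 within a library narrows by 0.45 in siTRIM28, and the groups do not overlap. This is 1 of 3 pairs of tested genes that were compared, and its p of 0.1 in the exact two-sided permutation test becomes 0.3 after Benjamini-Hochberg adjustment. The change is −0.19 for ERVK3-1 minus ERVK13-1 and 0.26 for ERV3-1 minus ERVK13-1, with exact permutation p-values of 0.3 and 0.2.

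The other 5 genes, both syncytins among them, are at or near 0. ERV3-1 is also known from the placenta, so the genes with placental expression do not share a level in T24 cells. ERVW-1 (syncytin-1, chromosome 7, 92468380 to 92477986) has 1 count, in siTRIM28 replicate 1. ERVFRD-1 (syncytin-2, chromosome 6, 11102324 to 11111725) has 1 count in siNC replicate 3 and 1 in siTRIM28 replicate 3. ERVV-1 (chromosome 19, 53013921 to 53016123), an envelope gene, has 1 count, in siNC replicate 2. ERVMER34-1 (chromosome 4, 52722618 to 52751425), which encodes an envelope protein that is shed from cells, has 1 count, in siTRIM28 replicate 3. No change of these 4 genes is detectable at this depth, and no fold is given, since both groups lie under the 3 counts that a count of 0 allows. Over the 3 libraries of a group 3 counts are 0.0739 CPM in siNC and 0.0794 CPM in siTRIM28, and in a single library 0.214 to 0.253 CPM.

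ERVV-2 (chromosome 19, 53044740 to 53051680), the envelope gene next to ERVV-1, has 0, 0 and 1 counts in siNC and 2, 1 and 2 in siTRIM28. The groups touch at 1 count. The sums of 1 and 5 counts give a ratio of 5.37 after scaling, with an exact 95% interval of 0.601 to 254 that includes 1 and covers counting error only. Without the count minimum none of the 5 genes is called, with adjusted p-values from 0.444 to 0.978 (edgeR).

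**Figure D3:**
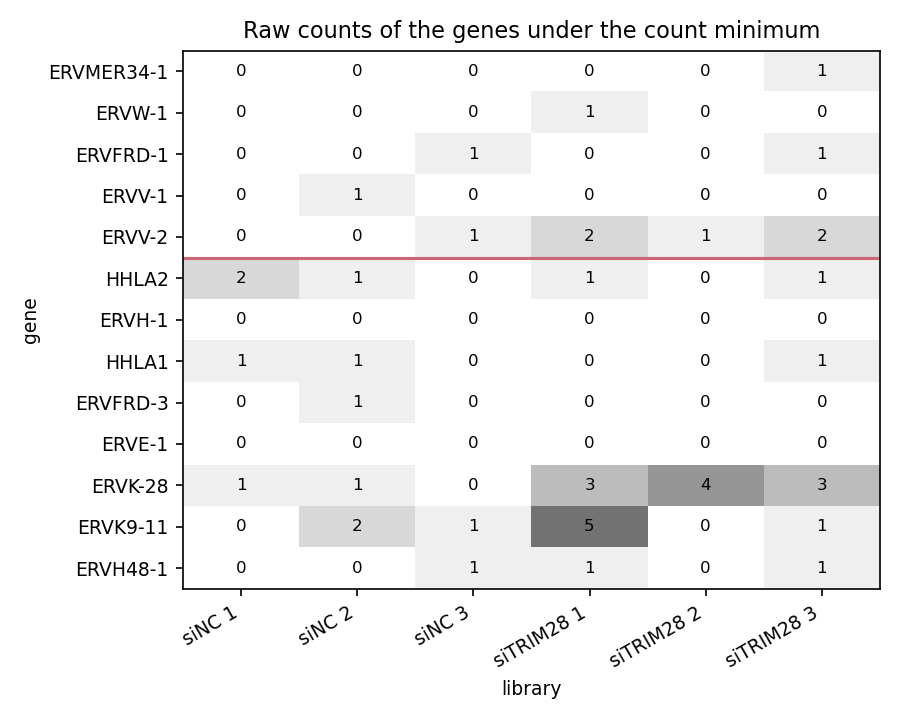
Raw counts in each library (columns) of the 5 ERV genes under the count minimum (above the red line) and of the other ERV and HHLA symbols of the table (below it), with darker cells for more counts. No cell above the line holds more than 2 counts and none below it more than 5.

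Most trophoblast markers are also under the count minimum. Of 19 markers, 7 are at 0 in all libraries, among them GCM1, a factor that switches on the syncytins, and 2 are tested and not called. Their summed level is 12.1 to 15.3 CPM in siNC and 11.6 to 13.1 CPM in siTRIM28, most of it from PAPPA2. GCM1 and PAPPA2 were named after their values were seen. Other ERV and HHLA symbols of the table, 8 in all, are also under the count minimum, and ERVH-1 and ERVE-1 have no count. Those with the most counts, named after their values were seen, are ERVK-28 with 1, 1 and 0 counts in siNC and 3, 4 and 3 in siTRIM28, and ERVK9-11 with 0, 2 and 1 against 5, 0 and 1. The ratio is 5.37 (exact 95% counting interval 1.14 to 50.4) for ERVK-28 and 2.15 (0.459 to 13.3) for ERVK9-11. Neither was tested, and these intervals make no allowance for choosing among the low rows.

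The receptors of the syncytins are expressed although their ligands are not detected above 1 count per library. MFSD2A, the receptor of syncytin-2, has 29, 35 and 24 counts in siNC and 55, 60 and 54 in siTRIM28 and is called higher (log2 fold change 1.05, SE 0.186, adjusted p = 8.14e-04). SLC1A5, a glutamine transporter and receptor of syncytin-1, has 671 to 793 counts in siNC and 528 to 645 in siTRIM28 and falls by 0.23 on the log2 scale (SE 0.0616, adjusted p = 0.0106). SLC1A4, its relative, has 10 to 17 counts per library and a log2 fold change of 0.26 that does not pass (SE 0.330, adjusted p = 0.558).

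Host genes from parts of LTR elements other than env, mostly gag or protease, are a second class of domesticated sequence and go both ways. Of 27 listed, 14 are tested, with 4 called higher, 4 called lower and 6 not called, where 21.3% of all genes tested are higher and 20.5% lower, and with a median log2 fold change of 0.06 beside 0.02 over all genes tested. ARC, a neuronal protein that forms capsids, rises most, with 13 to 15 counts in siNC and 41 to 59 in siTRIM28 (log2 fold change 1.97, SE 0.259, adjusted p = 8.86e-05). RTL6 falls most, from 339 to 380 counts in siNC to 150 to 168 in siTRIM28 (log2 fold change −1.07, SE 0.0711, adjusted p = 4.13e-07).

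Among 19 genes of retroelement repression other than TRIM28, all of them tested, 3 are called higher, 7 are called lower and 9 are not called, with a median log2 fold change of −0.10. Over all genes tested 21.3% are called higher and 20.5% lower, and the median is 0.02. DNMT1, which maintains DNA methylation, rises most (394 ± 8.75 and 517 ± 20.4 CPM in siNC and siTRIM28, log2 fold change 0.39, adjusted p = 1.57e-05). EHMT2, which methylates histone H3 at lysine 9, falls most (59.0 ± 1.43 and 34.4 ± 3.09 CPM, log2 fold change −0.78, adjusted p = 5.32e-06). These changes move with the rise of ERV3-1 and ERVK3-1 between the same groups, and their part in it was not tested.

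Some cell type markers also move with the groups. The summed level of the urothelial and epithelial list is 193 to 199 CPM in siNC and 212 to 221 CPM in siTRIM28, and most of it is KRT8 and KRT18. Of its 5 tested markers 3 are called higher, beside 21.3% of all genes tested. The list does not move together, and FOXA1 is not called (log2 fold change −0.16, adjusted p = 0.652, edgeR). Under the count minimum, EPCAM has 5, 5 and 6 counts in siNC and 2, 3 and 3 in siTRIM28. GATA3 has 10, 10 and 4 against 1, 4 and 4, while KRT13 has 1, 2 and 1 against 3, 3 and 1. FOXA1, EPCAM, GATA3 and KRT13 were named after their values were seen. UPK1A rises most, at 0.874 ± 0.490 and 3.41 ± 0.658 CPM (log2 fold change 1.94, SE 0.326, adjusted p = 5.48e-04), and KRT8 rises least of the called markers (log2 fold change 0.14, adjusted p = 0.0354). VIM lies at 1092 to 1116 CPM in siNC and 1326 to 1430 CPM in siTRIM28. Of 8 immune, endothelial and fibroblast markers only COL1A1 is tested and it is higher, CD3E (named after its values were seen) is at 0 in all libraries, and their sum is 1.37 to 1.94 CPM against 3.50 to 4.90 CPM. The part of these shifts in the values of the ERV genes was not tested.

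The genes whose pattern over the 6 libraries lies nearest to each ERV gene were sought by Euclidean distance of centred log2 CPM, among 11340 genes with a symbol and a mean of at least 50 counts. The nearest to ERV3-1 are PLEKHB2 at 0.0497 and PBX3 at 0.0782, and to ERVK3-1 HM13 at 0.0461 and ATP6V1G2-DDX39B at 0.0664. The latter is one of the 37 read-through rows without an exon base of their own, so its counts cannot be told apart from those of its parent genes. For ERVK13-1 they are ELFN1 at 0.172 and SOCS5 at 0.213, farther off. With 6 libraries in 2 groups, such nearness mainly says that a gene differs between the groups by a similar amount.

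**Figure D4:**
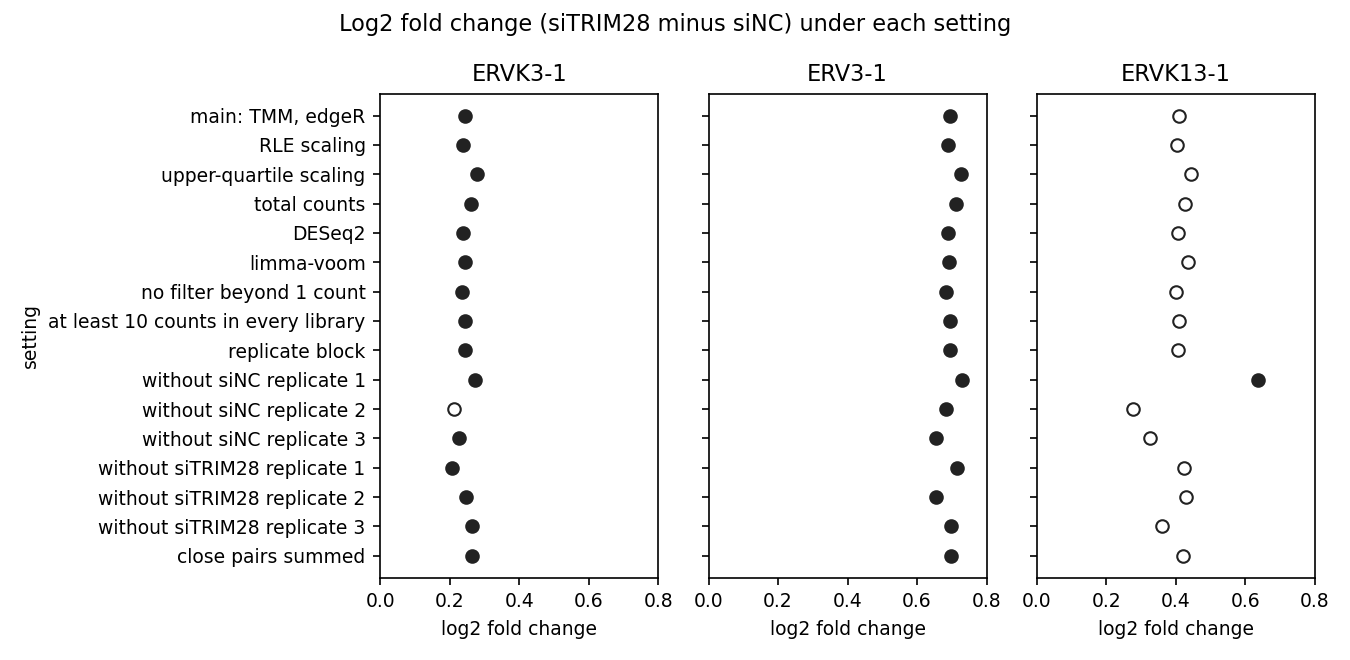
Log2 fold change (x axis, siTRIM28 minus siNC) of the 3 tested ERV genes under each scaling, test, filter and left-out library (rows), with filled points for an adjusted p under 0.05 and open points otherwise; in the last row the 2 closest libraries of each group are summed. ERV3-1 is filled throughout between 0.65 and 0.73, ERVK3-1 is open only without siNC replicate 2, and ERVK13-1 is filled only without siNC replicate 1.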

How the data were processed

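For each gene the authors deposited the raw read counts in 3 siNC and 3 siTRIM28 libraries of poly(A) RNA from T24 cells, made with a stranded kit. The submitters' processing notes name fastp 0.23.1, STAR 2.7.6a, featureCounts (no version) and GRCh38. The annotation release, the strand setting, the treatment of reads on shared exons and the removal of duplicates are not given in the sources used here. A second deposited table holds RPKM values of the authors' differentially expressed genes. It lists none of the 8 genes and was not used.

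TMM factors and the quasi-likelihood test of edgeR 4.0.16 (R 4.3.3), with condition as its term, were used over the 18474 genes with 10 or more counts in 3 or more libraries, with Benjamini-Hochberg adjustment and a threshold of 0.05. Exact permutation tests used log2 CPM (prior count 2). Total counts per library run from 11712623 to 14018052, so that 3 counts are 0.214 to 0.253 CPM. Intervals on counts cover counting error only. DESeq2 1.42.0, limma-voom (limma 3.58.1), other scalings, filters and thresholds, a replicate block, summed close libraries and each library left out in turn were alternatives. The comparison of ERVK3-1 with ZNF8-ERVK3-1 was added after the counts were seen. The scripts were tested on simulated data.

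Replicate numbers were not treated as pairs in the reported fit. The deviations of equal numbers correlate at 0.05, −0.01 and 0.04, and those of unequal numbers at −0.07 to 0.04. With 3 libraries per group, such values cannot show whether the cultures were paired. The text names the 8 genes, TRIM28, every row overlapping a tested one, the nearest tested gene on each side, the called gene with the highest and with the lowest log2 fold change of each other list, the receptors of the syncytins and, for each tested gene, 2 genes nearest in pattern; others are marked in the text as named after their values were seen. Exon sharing was computed from GENCODE v29 and promoters were read from RefSeq (GRCh38.p14). The 8 genes and all lists were chosen with earlier results of these data known. Python 3.11.15, pandas 2.3.3, numpy 2.4.6, scipy 1.17.1 and matplotlib 3.10.9 were used.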

Additional observations from a re-analysis of the deposited data

How the results depend on the processing

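Of the 8 genes, 2 are called in 8 of the alternatives (3 other scalings, DESeq2, limma-voom, both other count filters and summed close libraries) and with the replicate block. At an adjusted p under 0.01 the number is 1, and with 1 library left out it runs from 1 to 3, since ERVK3-1 is lost without siNC replicate 2 (log2 fold change 0.21) and ERVK13-1 is gained without siNC replicate 1 (0.64). With 1 library left out the log2 fold change runs from 0.21 to 0.27 for ERVK3-1, 0.65 to 0.73 for ERV3-1 and 0.28 to 0.64 for ERVK13-1. Under the other alternatives it runs from 0.23 to 0.28 (adjusted p 0.00508 to 0.0498), 0.68 to 0.73 (1.70e-09 to 0.00229) and 0.40 to 0.44 (0.0719 to 0.211). The change in the difference between ERV3-1 and ZNF117 turns to −0.0679 without siNC replicate 2 and −0.0495 without siTRIM28 replicate 2, and runs from −0.07 to 0.12 over the left-out libraries. With the replicate number as a block, 7910 genes of the table are called in place of 7723, and no call of the 3 tested ERV genes changes. Over all alternatives 5393 to 8252 genes of the table and 15 to 22 of the listed context genes (20 in the reported fit) are called. Depth limits what can be said of the 5 genes near 0. The part of reads that align to several similar copies in these low counts was not tested.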
